A study of Oryza sativa with 12 samples.

Results

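OsSWEET15 and AMY1.3 are sugar genes of rice, one for a sugar transporter and one for a starch-degrading amylase. They were followed here in young panicles of the osmads1 mutant and the wild type. Their probe sets were found by gene symbol or synonym in the array's annotation, which gave 1 probe set for OsSWEET15 (Os.16044.1.S1_at, gene on chromosome 2) and 2 for AMY1.3 (Os.10908.1.S1_a_at and Os.10908.4.S1_at, gene on chromosome 8). These are 3 of 57194 tested probe sets and 2 of 17905 annotated genes. Both genes were chosen by their large genotype differences at 5-7 mm, OsSWEET15 among the probe sets higher in osmads1 and AMY1.3 among those lower. Values at that length are therefore described without a test. The difference at 2 mm was not the basis of the choice and is tested, although earlier results of these data were known.

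The 4 groups, each of 3 biological replicate arrays, were osmads1 and Wild Type panicles of 2 mm, an early stage at which inner floral organs start to form, and osmads1 and Wild Type panicles of 5-7 mm, a late stage of floral organ development. All plants grew in a paddy field without special treatment. The labels give neither the osmads1 allele nor the genetic background, and do not say how many panicles or plants made up a replicate. OsMADS1 encodes a MADS-box transcription factor needed for the identity of the floret meristem and of floral organs.

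SWEET proteins are membrane transporters that let sugars pass down their concentration gradient. Those of the OsSWEET11 to OsSWEET15 group carry mainly sucrose, and OsSWEET11 and OsSWEET15 are known for feeding the developing rice grain. AMY1.3, also called AMY3D or RAmy3D, encodes an alpha-amylase, an enzyme that cleaves starch into shorter sugar chains. The gene is known in rice for its induction when cells run short of sugar and its repression by sugar, through MYB proteins of the MYBS group that bind its promoter.

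Levels are log2 values, given for replicates 1, 2 and 3 in that order. A difference is the osmads1 mean less the wild-type mean, on the log2 scale, ± the standard error of the linear model. All adjusted p-values come from limma's two-sided test with Benjamini-Hochberg adjustment over all 57194 probe sets. A whole panicle was measured, so that fewer cells of a type and less RNA per cell cannot be told apart.

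OsSWEET15 was lower in osmads1 than in wild type in the short panicles and higher in the long ones. At 2 mm its levels were 6.08, 6.52 and 6.33 in osmads1 and 7.28, 7.09 and 7.2 in wild type, and the highest mutant array lay below the lowest wild-type array, a separation shown in one direction or the other by 29.0% of all probe sets. The mean of 6.31 ± 0.22 (SD, n = 3) in the mutant against 7.19 ± 0.098 in wild type gave a difference of -0.88 ± 0.16, a 1.84-fold fall (limma adjusted p = 0.00253). The 95% interval of this difference ran from -1.23 to -0.54. At this length limma called 11.8% of all probe sets, 5.5% being higher and 6.28% lower in osmads1.

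At 5-7 mm the OsSWEET15 levels were 6.63, 7.33 and 6.83 in osmads1 and 4.28, 4.43 and 4.11 in wild type. All 3 mutant arrays stood above the 3 wild-type arrays, and 35.0% of all probe sets had groups that did not overlap at this length. The difference of group means was 2.66 ± 0.16, or 6.31-fold, which ranked 174 among the positive differences of the array. The wild-type mean of 4.27 stood above the upper quartile of the reporter controls (3.95), which are probe sets for transcripts that rice does not make, and below the highest of them (5.78). The change of the genotype difference from 2 mm to 5-7 mm was 3.54 ± 0.23. At 5-7 mm 21.5% of all probe sets were called, 10.2% higher and 11.3% lower in osmads1. A share of 2.02% was called lower at 2 mm and higher at 5-7 mm, and 2.5% the other way round. These shares are given for scale, since the gene was chosen by its difference at 5-7 mm.

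**Figure D1:**
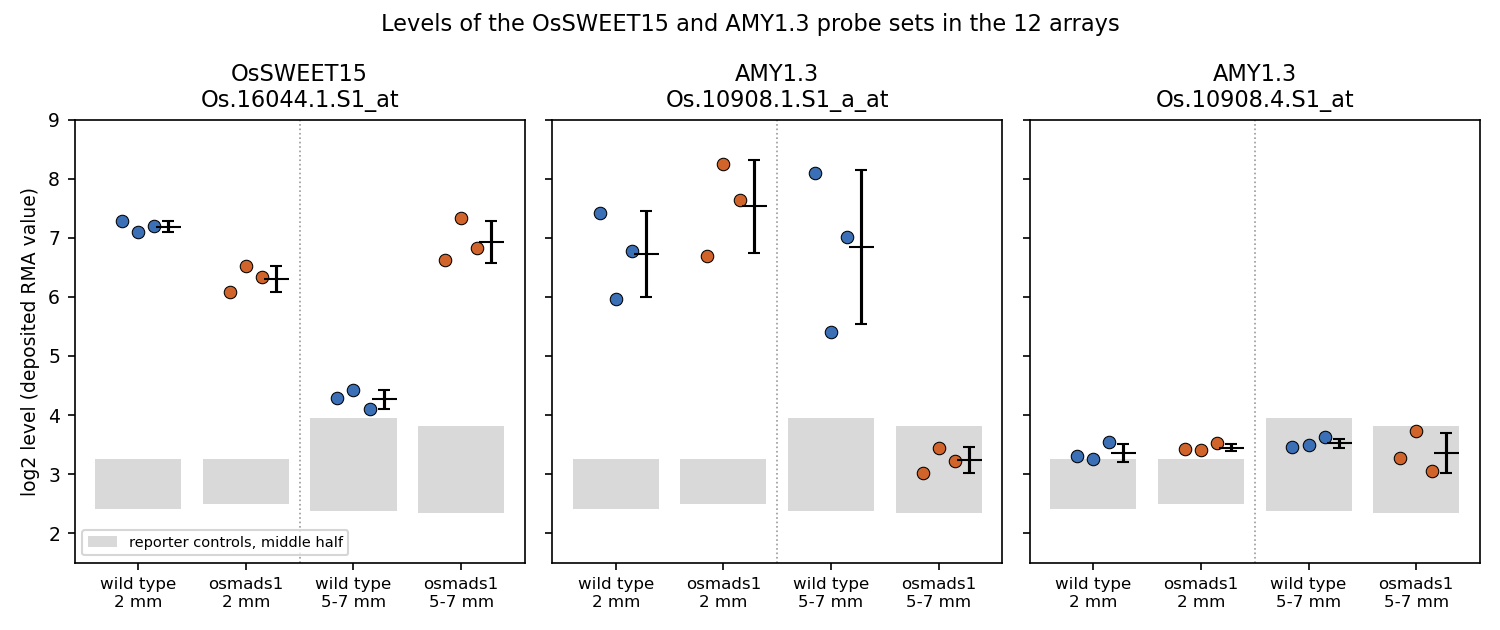
Log2 level of each OsSWEET15 and AMY1.3 probe set (y axis) in the 4 groups (x axis). Points are the 3 replicate arrays, bars are the mean ± SD, and grey boxes run from the lower to the upper quartile of the 64 reporter control probe sets in that group. OsSWEET15 is lowest in wild type at 5-7 mm, AMY1.3 (Os.10908.1.S1_a_at) is lowest in osmads1 at 5-7 mm, and the second AMY1.3 probe set stays between 3.06 and 3.73.

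AMY1.3, as read by Os.10908.1.S1_a_at, stood above the upper quartile of the reporter controls in 3 of the 4 groups and lay below it in osmads1 at 5-7 mm. At 2 mm its levels were 6.69, 8.25 and 7.64 in osmads1 and 7.42, 5.97 and 6.77 in wild type, and the arrays of the genotypes overlapped. The difference of 0.81 ± 0.56 at 2 mm did not pass (limma adjusted p = 0.475), and its 95% interval, -0.41 to 2.03, leaves room for a fall as well as for a large rise.

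At 5-7 mm AMY1.3 read 3.02, 3.45 and 3.23 in osmads1 and 8.09, 5.41 and 7.01 in wild type. The mutant arrays were close to each other and all lay below the lowest wild-type array. The difference of group means was -3.6 ± 0.56, which ranked 46 among the negative differences. The mutant mean of 3.24 ± 0.22 lay under the upper quartile of the reporter controls (3.81). Measured against that quartile, AMY1.3 was at least 8.14-fold lower in osmads1. Without wild-type replicate 1 the difference was -2.97 and the bound at least 5.27-fold, and without wild-type replicate 2 they were -4.31 and at least 13.4-fold. The genotype difference at 5-7 mm minus that at 2 mm was -4.41 ± 0.8.

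The second AMY1.3 probe set, Os.10908.4.S1_at, did not show these differences. Its 12 values lay between 3.06 and 3.73, under the upper quartile of reporter controls at 5-7 mm and close to it (3.26) at 2 mm. Its differences were 0.088 ± 0.14 at 2 mm (limma adjusted p = 0.808) and -0.17 ± 0.14 at 5-7 mm, and the genotypes overlapped at both lengths. The account of AMY1.3 thus rests on 1 probe set, and which part of the transcript each reads was not tested.

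The replicates of AMY1.3 differed from each other more than those of almost any other probe set. Its residual SD within groups was 0.868, against a median of 0.129 over all 57194 probe sets, and only 1 probe set had a wider spread. In wild type at 5-7 mm the SD was 1.3, with replicate 1 at 8.09 and replicate 2 at 5.41. OsSWEET15 had a residual SD of 0.231, at percentile 94.4.

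Across the 4 groups, OsSWEET15 was set apart by wild type at 5-7 mm and AMY1.3 by osmads1 at 5-7 mm. Array medians lay between 4.1 and 4.13 for the short panicles but between 4.93 and 5.0 for the long ones, and the deposited values therefore share no scale across lengths. In the deposited values the OsSWEET15 means ran from 7.19 in wild type at 2 mm over 6.93 in osmads1 at 5-7 mm and 6.31 in osmads1 at 2 mm to 4.27 in wild type at 5-7 mm. After quantile normalization of all 12 arrays together they were 7.52, 6.59, 6.66 and 3.88 in the same order of groups. The means of the osmads1 groups thus changed places, and on that scale they differed by less than the SD of either group (0.23 at 2 mm and 0.39 at 5-7 mm).

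The OsSWEET15 mean of wild type at 5-7 mm less that at 2 mm was -2.92 in the deposited values and -3.64 after joint quantile normalization. In osmads1 the corresponding values were 0.62 and -0.066. For AMY1.3 the wild type differed by 0.12 or -0.61 between lengths and osmads1 by -4.29 or -4.83. The AMY1.3 means of osmads1 at 2 mm (7.53), wild type at 5-7 mm (6.84) and wild type at 2 mm (6.72) are given side by side. The arrays of these 3 groups overlapped, and the tested difference among them, that at 2 mm, did not pass. These values between lengths are descriptions, as stage and normalization cannot be told apart in the deposited values.

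Other genes of sugar and starch metabolism were taken from a list of 12 families by name. Of its genes, 61 were measured besides OsSWEET15 and AMY1.3. At 2 mm, 13 were higher and 4 lower in osmads1, or 27.9%, against 22.3% of the 17905 annotated genes with 1 probe set each (10.2% higher and 12.1% lower). At 5-7 mm, 5 were higher and 13 lower, or 29.5%, against 32.7% of all genes (13.3% higher and 19.4% lower). Both directions together, these shares lie near those of all genes. By direction, 21.3% of the list were higher and 6.56% lower at 2 mm, and 8.2% were higher and 21.3% lower at 5-7 mm. The median difference was 0.057 at 2 mm and -0.065 at 5-7 mm, against -0.017 over all genes at both lengths. The genotype difference changed between lengths for 19 of the 61 (31.1%, against 36.3% of all genes), 3 positively (4.92%) and 16 negatively (26.2%), where 17.2% of all genes changed positively and 19.2% negatively. Over all probe sets 22.3% changed, 11.3% positively and 11.0% negatively.

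By limma 0 of the 61 were called lower in osmads1 at 2 mm and higher at 5-7 mm (1 at an unadjusted p under 0.05), as 3.57% of all genes were. The reverse, higher at 2 mm and lower at 5-7 mm, held for 6 of the 61 (9.84%), namely OsSWEET4, OsSUS4, SSII-1, RSR1, OsMYBS3 and OsMYBS2, and for 5.02% of all genes. Of the calls behind these 6, that of SSII-1 at 5-7 mm was lost under 7 of 19 alternatives. That of RSR1 at 2 mm was lost under 4 of 19.

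**Figure D2:**
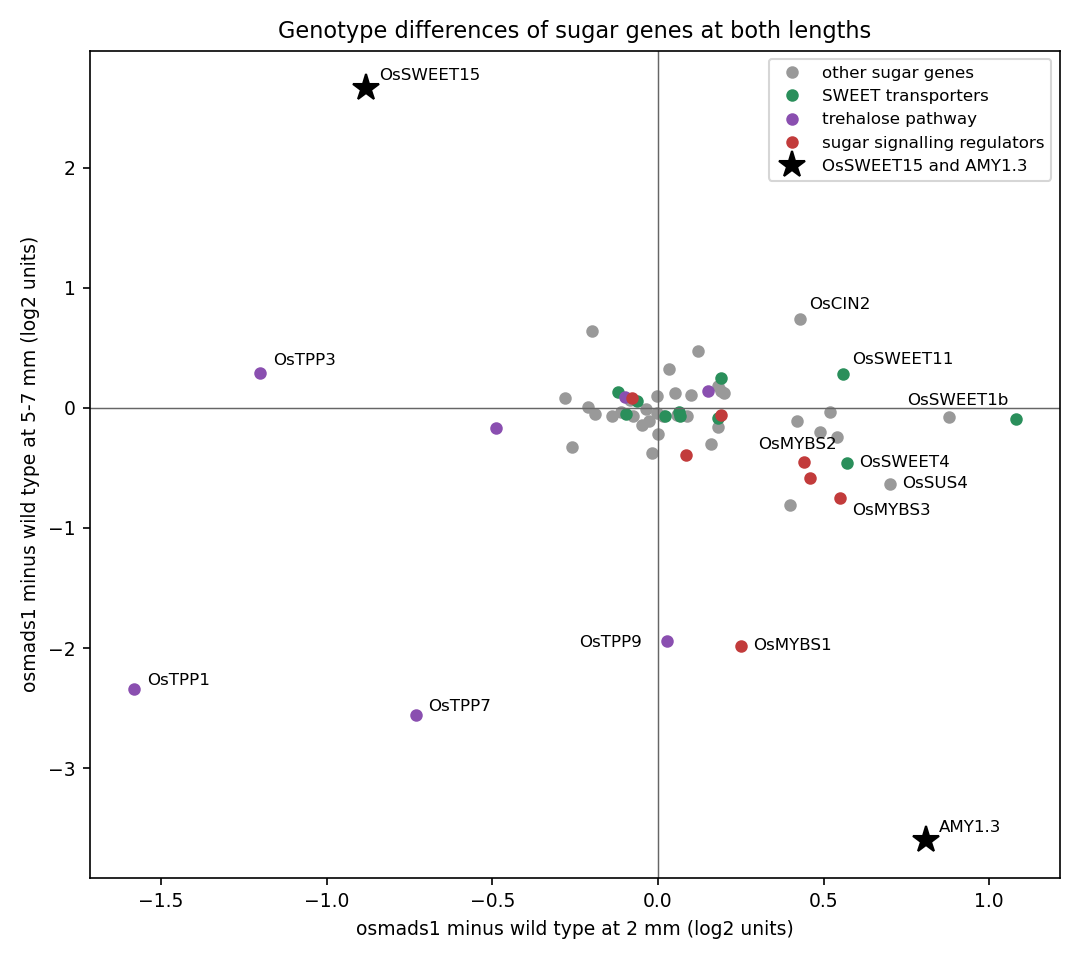
Osmads1 minus wild type at 2 mm (x axis) and at 5-7 mm (y axis), in log2 units, for 61 sugar genes (circles, 1 probe set each) and for OsSWEET15 and AMY1.3 (stars). OsSWEET15 lies at -0.88 and 2.66, AMY1.3 lies at 0.81 and -3.6, and most other genes sit near 0 on both axes. Both starred genes were chosen by their large values on the y axis.

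Among the 11 other SWEET genes measured, 3 were higher in osmads1 at 2 mm, where OsSWEET15 was lower, and 0 were lower by limma, also at an unadjusted p under 0.05 (0). For comparison, 10.2% of all genes were higher and 12.1% lower at that length. OsSWEET11, a sucrose transporter of pollen and grain, read 11.25, 10.81 and 11.07 in osmads1 and 10.5, 10.51 and 10.43 in wild type at 2 mm, with no overlap. It rose by 0.56 ± 0.095 (limma adjusted p = 0.00151) and its difference of 0.28 ± 0.095 at 5-7 mm missed the threshold (adjusted p = 0.0569).

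OsSWEET4, a hexose transporter that acts in grain filling, rose by 0.57 ± 0.089 at 2 mm (limma adjusted p = 0.000902). At 5-7 mm it fell by 0.46 on the log2 scale (adjusted p = 0.00226). Its levels there were 10.23, 10.51 and 10.26 in osmads1 and 10.9, 10.69 and 10.79 in wild type, all mutant arrays being the lower ones. OsSWEET1b rose by 1.08 ± 0.22 at 2 mm (limma adjusted p = 0.00501) from 3.63 to 4.7 and differed by -0.095 at 5-7 mm.

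OsSWEET1a was called at 5-7 mm (0.25 ± 0.082, limma adjusted p = 0.045), a call that was lost under 13 of 19 alternatives (adjusted p up to 0.16), among them leaving out replicate 1 or 3 of either genotype at that length. The remaining 7 SWEET genes did not pass at either length. They were OsSWEET2a, OsSWEET2b, OsSWEET5, OsSWEET6a, OsSWEET12, OsSWEET14 and OsSWEET16, of which OsSWEET12, OsSWEET14 and OsSWEET16 read in the reporter range in all groups. Over the 11 genes the differences at 2 mm lay between -0.12 and 1.08, and those at 5-7 mm lay between -0.46 and 0.28. The OsSWEET15 difference at 2 mm was outside the first range. Its difference at 5-7 mm was outside the second, which is given for scale only, since the gene was chosen by that difference.

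The other alpha-amylase genes gave no signal that moved with AMY1.3. AMY1.1, AMY1.2, AMY1.4 and AMY1.5 read under the upper quartile of reporter controls in all 4 groups, and 0 of the 4 passed at either length by limma (0 at 2 mm and 1 at 5-7 mm, AMY1.2, at an unadjusted p under 0.05). The shares of all genes that passed were 22.3% at 2 mm and 32.7% at 5-7 mm. AMY1.4 (RAmy3E) is the next protein-coding gene to AMY1.3 on chromosome 8 in the RefSeq table. It read 2.96 and 2.99 at 2 mm and 3.47 and 3.58 at 5-7 mm in osmads1 and wild type. Of other starch-degrading enzymes, the glucan-transferring disproportionating enzyme genes OsDPE1 and DPE2 were measured. OsDPE1 rose by 0.42 ± 0.076 at 2 mm (limma adjusted p = 0.00247), and DPE2 rose by 0.47 ± 0.084 at 5-7 mm (adjusted p = 0.00132).

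The list's family of sugar signalling regulators had 7 measured genes. It includes RSR1 and OsGAMyb, whose known roles, given below, are in starch synthesis and the gibberellin response. Of the 7, 0 were higher and 5 lower in osmads1 at 5-7 mm, the length at which AMY1.3 was low there. At 2 mm 3 were higher and 0 lower. At an unadjusted p under 0.05 these counts were 0, 5, 4 and 0. Of all genes, 13.3% were higher and 19.4% lower at 5-7 mm, and 10.2% were higher and 12.1% lower at 2 mm. OsMYBS1, an activator of the sugar-repressed alpha-amylase promoter, read 4.35, 5.13 and 4.84 in osmads1 and 6.75, 6.64 and 6.88 in wild type at 5-7 mm. The groups were well apart, and OsMYBS1 fell by 3.95-fold (-1.98 ± 0.16, limma adjusted p = 1.53e-06). At 2 mm its means were 5.37 for osmads1 and 5.12 for wild type, a difference that did not pass (0.25 ± 0.16, adjusted p = 0.417), and the change of its difference between lengths was -2.23 (adjusted p = 1.08e-05).

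OsMYBS3, a repressor of the same promoter, rose by 0.55 ± 0.11 at 2 mm and fell by 0.75 on the log2 scale at 5-7 mm (limma adjusted p = 0.00423 and 0.000221). OsMYBS2, a further member of the group, rose by 0.44 ± 0.096 and fell by 0.45 (adjusted p = 0.0088 and 0.0042). RSR1, known as a repressor of starch synthesis genes in rice seeds, rose by 0.46 at 2 mm (adjusted p = 0.025) and fell by 0.58 at 5-7 mm (adjusted p = 0.00345). The RSR1 call at 2 mm was lost without wild-type replicate 1 or 2 or osmads1 replicate 2 or 3 of that length (adjusted p up to 0.114).

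The fifth regulator that was lower at 5-7 mm was the kinase gene SNRK1B, at 10.76, 10.87 and 10.93 in osmads1 and 11.36, 11.23 and 11.14 in wild type, without overlap (-0.39, limma adjusted p = 0.0156). That call was lost without replicate 1 of either genotype at that length (adjusted p up to 0.0666). SnRK1A, the kinase that activates the amylase response to sugar shortage in rice seedlings, and OsGAMyb, which mediates the gibberellin response of amylase genes, did not pass at either length.

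**Figure D3:**
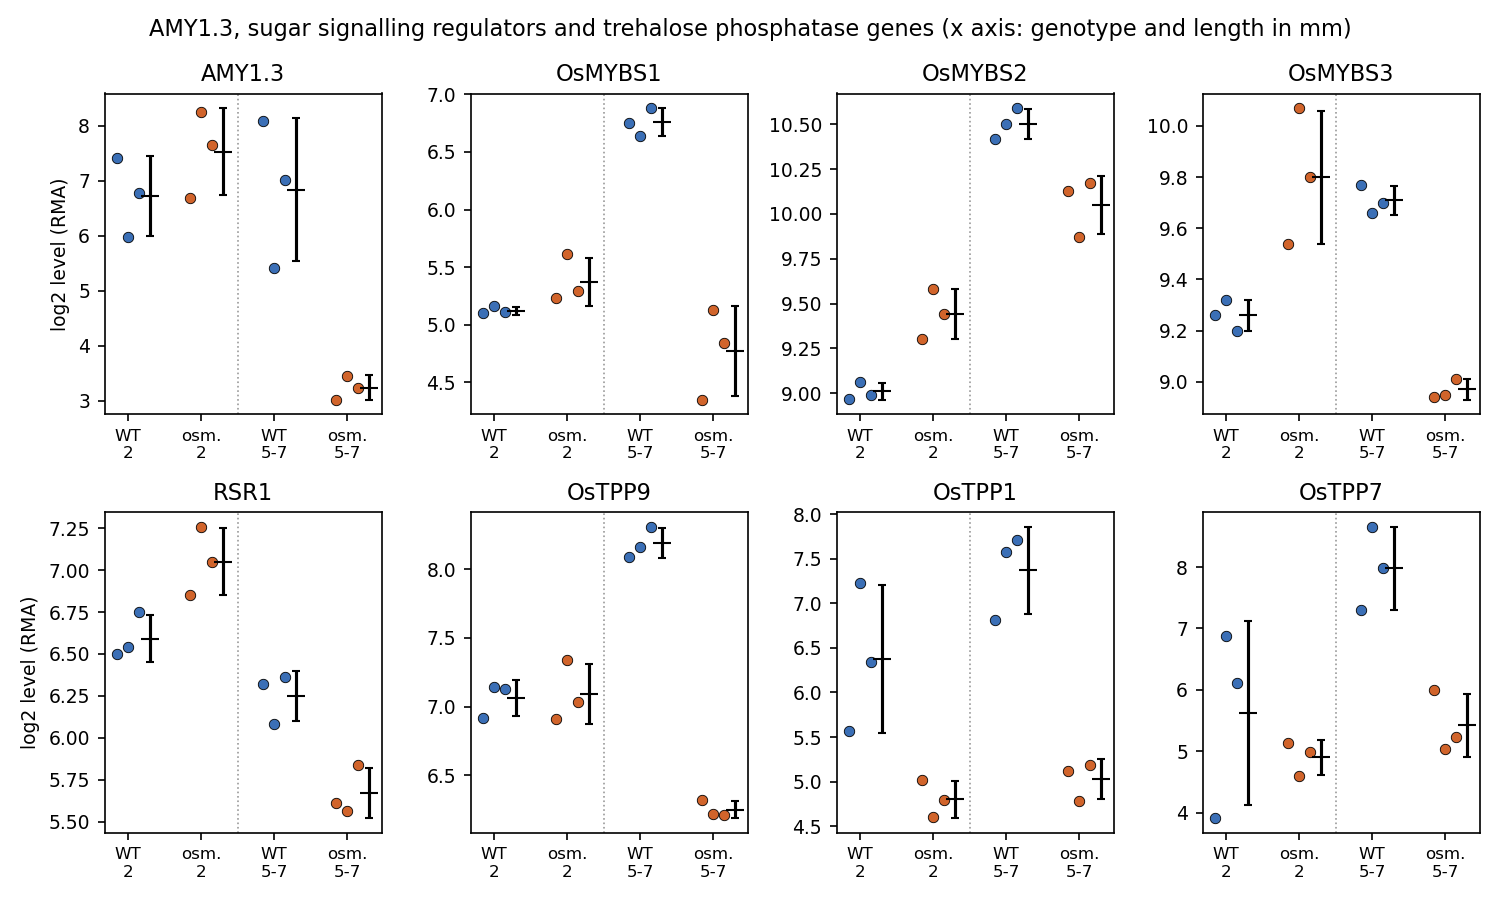
Log2 levels of AMY1.3, 4 regulators and 3 trehalose phosphatase genes in the 3 replicate arrays of each group (points, with mean ± SD), with wild type in blue and osmads1 in orange and the length in mm under each group. The y axis differs between panels. The regulators and phosphatase genes shown were taken from those called lower in osmads1 at 5-7 mm, and AMY1.3 was chosen for its fall there. In all 8 genes the osmads1 arrays of 5-7 mm lie below the wild-type arrays of that length, a shared direction set by this choice. Genes of these families not called lower there (SnRK1A, OsGAMyb, OsTPP3, OsTPP4, OsTPP6 and OsTPP10) are not shown. Their differences at 5-7 mm lay between -0.17 (OsTPP4) and 0.29 (OsTPP3).

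Trehalose-6-phosphate phosphatases turn trehalose-6-phosphate, a sugar signal of plants, into trehalose. Of their 7 measured genes, 0 were higher and 3 lower in osmads1 at each length by limma (0 and 1 higher at an unadjusted p under 0.05), where 12.1% and 19.4% of all genes were lower. OsTPP1 fell by 2.99-fold at 2 mm (-1.58 ± 0.33, limma adjusted p = 0.00683) and by 5.05-fold at 5-7 mm (-2.34 ± 0.33, adjusted p = 0.000209). OsTPP9 read 6.32, 6.22 and 6.21 in osmads1 and 8.09, 8.16 and 8.31 in wild type at 5-7 mm, a fall of 3.82-fold (-1.94, adjusted p = 5.89e-08), and 7.09 against 7.06 at 2 mm. OsTPP3 fell by 1.2 on the log2 scale at 2 mm (adjusted p = 9.71e-06) and differed by 0.29 at 5-7 mm.

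OsTPP7, known in rice for supporting starch use during germination under water, read 6.0, 5.04 and 5.23 in osmads1 and 7.3, 8.66 and 7.98 in wild type at 5-7 mm. It fell by 5.9-fold there (-2.56 ± 0.58, limma adjusted p = 0.00626). At 2 mm its wild-type arrays, at 3.91, 6.88 and 6.12, enclosed the mutant values of 5.14, 4.59 and 4.98. OsTPP4 was called lower at 2 mm (-0.49, adjusted p = 0.0297), a call lost without wild-type replicate 2 or 3 or osmads1 replicate 1 or 3 of that length (adjusted p up to 0.109).

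Of 7 invertase genes, 2 were higher and 0 lower at 2 mm, and 2 were higher and 1 lower at 5-7 mm. Of 6 sucrose synthase genes, 1 was higher and 0 lower at 2 mm, and 0 were higher and 2 lower at 5-7 mm. Shares over all genes were 10.2% higher and 12.1% lower at 2 mm, and 13.3% higher and 19.4% lower at 5-7 mm. Among 3 sucrose transporter genes, OsSUT4 was called lower at 2 mm (-0.28, limma adjusted p = 0.0301) and OsSUT1 higher at 5-7 mm (0.32, adjusted p = 0.0286). The first call was lost under 8 and the second under 6 of 19 alternatives, most of them leaving out 1 array (adjusted p up to 0.118 and 0.109). The cell-wall invertase gene OsCIN2 (GIF1), which acts in early grain filling, rose at both lengths, by 0.43 ± 0.093 at 2 mm and 0.74 ± 0.093 at 5-7 mm (limma adjusted p = 0.00804 and 7.22e-05). At 5-7 mm OsCIN3 rose by 0.64 and OsCIN1 fell by 0.81 (adjusted p = 0.00314 and 0.00307). The wild-type OsCIN3 mean there (3.42) lay under the upper quartile of the reporter controls (3.95). Measured against that quartile, OsCIN3 was at least 1.08-fold higher in osmads1. The sucrose synthase gene OsSUS4 rose by 0.7 at 2 mm and fell by 0.63 at 5-7 mm (adjusted p = 0.00281 and 0.00329). In starch synthesis, OsAGPS2, a small subunit of ADP-glucose pyrophosphorylase, rose by 0.88 ± 0.098 at 2 mm (adjusted p = 5.88e-05) and differed by -0.073 at 5-7 mm. The starch synthase gene SSII-1 rose by 0.54 at 2 mm (adjusted p = 0.000285) and was called lower at 5-7 mm (-0.24, adjusted p = 0.0335). The last call was lost without replicate 1 or 2 of either genotype at that length (adjusted p up to 0.113).

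Likeness to either gene was measured as Pearson's r over the 12 arrays after the mean of each length had been subtracted, over 2451 genes with an informative name. The arrays share genotype and length, so that r mostly follows the genotype differences, and it does not weigh their size. The genes most like OsSWEET15 were LAX1 (OsbHLH123, r = 0.986), a regulator of axillary meristems, the cyclin gene CYCD5-3 (0.982), the phytosulfokine precursor gene PSK4 (0.975), the mitochondrial gene cob (0.972) and the growth-regulating factor gene OsGRF10 (0.972). In LAX1 and cob the differences were -0.46 and -0.67 at 2 mm and 2.39 and 2.9 at 5-7 mm, sizes near those of OsSWEET15.

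The genes most like AMY1.3 were the catalase gene CAT-A (r = 0.973), the phosphomannomutase gene OsPMM (0.961), the methylcrotonyl-CoA carboxylase gene MCCA (0.956), the GF14A (0.954) and ta7 (0.95). Their differences at 5-7 mm were smaller, from -1.45 for CAT-A, whose osmads1 mean of 3.43 lay in the reporter range, to -0.2 for ta7. Among the sugar genes the r with AMY1.3 was highest for OsMYBS1 (0.89), but it was 0.365 once the mean of each group was subtracted. OsSWEET15 and AMY1.3 had an r of -0.837 with each other, and of 0.249 once the mean of each group was subtracted. The choice of 1 gene as higher and the other as lower in osmads1 at 5-7 mm favoured a negative first value.

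**Figure D4:**
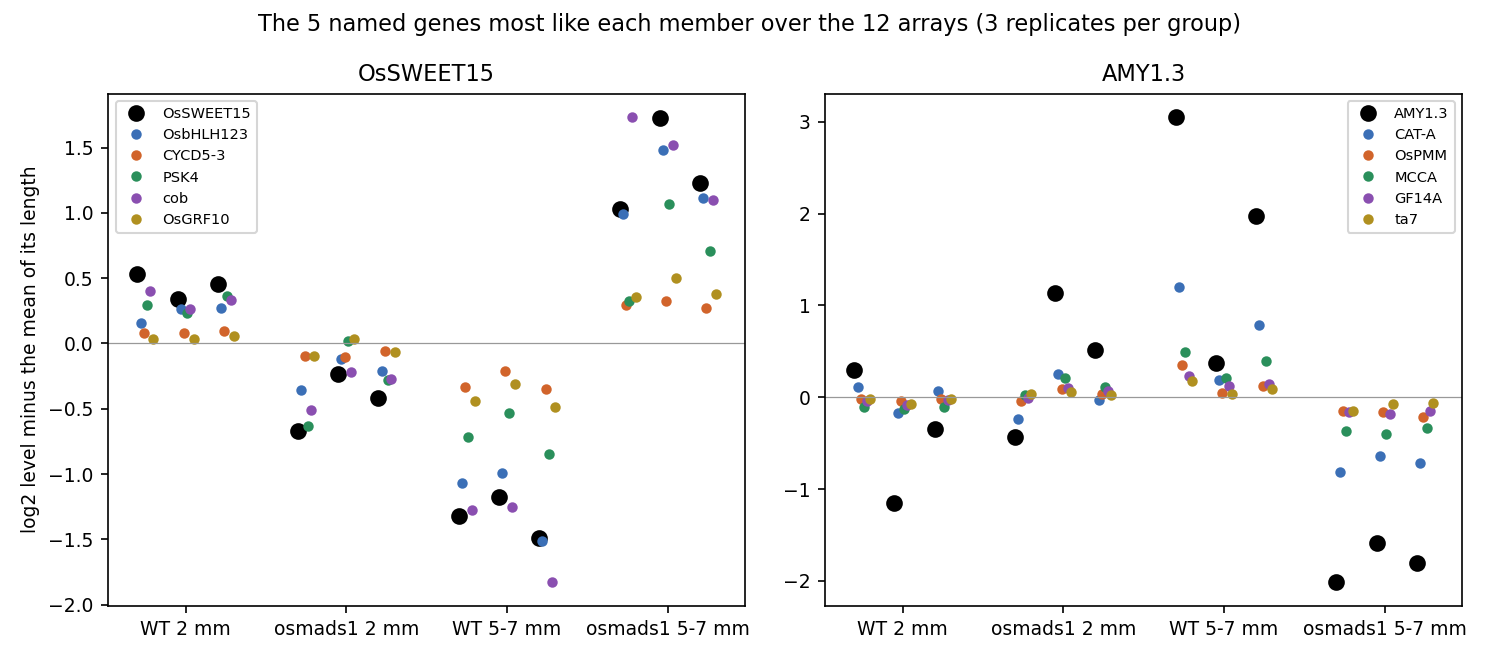
Log2 level minus the mean of its length (y axis) in the 3 arrays of each group (x axis) for OsSWEET15 and AMY1.3 (black) and the 5 named genes most like each (colours, OsbHLH123 being LAX1). OsSWEET15 and LAX1 cover a similar range, whereas the genes most like AMY1.3 vary less than AMY1.3 does.

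Several readings of the series bear on these values. OsMADS1 itself lay between 3.49 and 5.25 on the 6 mutant arrays and between 10.57 and 11.61 on the 6 wild-type arrays, with differences of -5.94 and -7.43. All 5 young panicle markers (OsMADS14, OsMADS15, OsMADS34, RFL and OSH1) were above the reporter range in every group. Their mean level per array was 10.49 to 10.74 in osmads1 against 10.62 to 10.7 in wild type at 2 mm. At 5-7 mm it was 11.09 to 11.23 in osmads1 against 10.49 to 10.72 in wild type, without overlap, and RFL differed most (1.26, limma adjusted p = 5.85e-06). OSH1 was lower in osmads1 at 2 mm (-0.35, limma adjusted p = 0.0111) and higher at 5-7 mm (0.32, adjusted p = 0.0114). OsMADS15 and OsMADS34 were also higher at 5-7 mm. No other young panicle marker passed at 2 mm, and OsMADS14 passed at neither length. The mean of the 3 measured leaf markers was 7.04 to 7.52 in osmads1 against 6.58 to 6.83 in wild type at 2 mm and 7.4 to 7.79 against 6.65 to 7.01 at 5-7 mm. A single gene carried each gap, PSAG at 2 mm (1.35) and CAB2R at 5-7 mm (2.5), while the other leaf markers did not pass. The mean of the 5 tapetum markers was 4.53 to 4.74 against 3.35 to 3.39 at 2 mm and 3.86 to 4.02 against 3.98 to 4.11 at 5-7 mm, with 1 to 3 of the 5 in the reporter range, depending on the group. OsC6 (2.73), RAFTIN1 (1.67) and CYP703A3 (1.66) carried the gap at 2 mm (limma adjusted p = 2.96e-10, 4.94e-06 and 1.03e-05). TDR (0.33) and PTC1 (0.08) did not pass there, and none of the 5 passed at 5-7 mm. The mean of 4 seed storage genes was 5.19 to 5.24 against 5.2 to 5.35 at 2 mm and 5.7 to 5.85 against 5.8 to 5.89 at 5-7 mm. The 3' minus 5' reading of a GAPDH control was 2.53 to 2.64 in osmads1 and 3.55 to 3.63 in wild type at 2 mm, and overlapped at 5-7 mm (1.97 to 2.74 and 1.95 to 2.27). The part of these readings in the differences of OsSWEET15, AMY1.3 and the other sugar genes was not tested.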

How the data were processed

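The deposited table gives log2 probe set levels made by the authors with RMA in Partek, per the submitters' processing notes; versions and settings are not given in the sources used here. Per the labels' protocols, total RNA extracted with Trizol was amplified from the 3' end for Affymetrix arrays. RMA gives no detection call and compresses differences of dim probe sets, so levels were set against 64 reporter controls. The 187 control probe sets were left out of the tests, and no filter was applied. Symbols came from the platform annotation, updated through RefSeq (assembly ASM3414082v1). RefSeq coordinates served only to find the genes next to OsSWEET15 and AMY1.3, and sequences were not used here. Where several probe sets read a gene, the one of highest mean level stood for it.

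All 12 arrays entered 1 limma model (limma 3.58.1, R 4.3.3) with 1 mean per group and eBayes (8 residual and 4.74 prior degrees of freedom); the model was tested on simulated data. Calls had a two-sided adjusted p under 0.05. Replicates are called biological repeats, with no word on separate plants, and p-values measure the spread between these arrays. Genes and families were chosen with earlier results of these data known. By the naming rule, all SWEET and alpha-amylase genes could be named, up to 4 non-overlapping called genes of each other family at each length, and the 5 genes most like each member. SNRK1B, SnRK1A and OsGAMyb were added after their values were seen. Names shared by several genes (12 of them) were left out of the list, and 12 listed genes had no probe set. Figures were drawn with matplotlib 3.10.9.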

Additional observations from a re-analysis of the deposited data

Results flagged for a closer look

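OsSWEET15 had all 3 osmads1 arrays below the 3 wild-type arrays at 2 mm and above them at 5-7 mm, and its genotype difference moved by 3.54 between the lengths. This change was not tested, because the gene was chosen for its value at 5-7 mm.

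Genotype differences of other sugar genes that changed between the lengths by limma's interaction term (5-7 mm minus 2 mm) were as follows. Transporter genes were OsSWEET4 (-1.03, adjusted p = 5.81e-05), OsSWEET1b (-1.17, adjusted p = 0.0139) and OsSUT4 (0.36, adjusted p = 0.0269). Invertase and sucrose synthase genes were OsCIN4 (-0.68), OsCIN1 (-1.21), OsCIN3 (0.84, with wild type at 5-7 mm in the reporter range), OsSUS4 (-1.33) and OsSUS2 (-0.46). FRK1, a fructokinase gene, moved by -0.56, OsAGPS2 by -0.95, SSII-1 by -0.77 and OsDPE1 by -0.53. OsTPP9 moved by -1.96 (adjusted p = 1.19e-06) and OsTPP3 by 1.49 (adjusted p = 1.29e-05). The regulators moved by -2.23 (OsMYBS1), -1.29 (OsMYBS3), -1.04 (RSR1), -0.89 (OsMYBS2) and -0.47 (SNRK1B, adjusted p = 0.0326, lost under 8 of 18 alternatives). The calls of OsSUT4, OsCIN4 and FRK1 were lost when any of several single arrays was left out, with adjusted p up to 0.0642, 0.0686 and 0.079.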

How the results depend on the processing

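OsSWEET15 at 2 mm stayed lower in osmads1 and past the threshold under the 7 alternatives run for it, with differences of -0.88 to -0.87 and adjusted p up to 0.00488, and without any single array (-0.99 to -0.77, adjusted p up to 0.014). AMY1.3 at 2 mm passed under none of its 8 alternatives (adjusted p 0.301 to 0.808) or without any single array (difference 0.43 to 1.23, adjusted p 0.281 to 0.8). At 5-7 mm the OsSWEET15 difference was 2.6 to 2.71 under the alternatives and 2.46 to 2.81 without single arrays of that length. That of AMY1.3 was -4.31 to -2.97 without single arrays, -3.06 with array weights and -0.17 in the second probe set of the gene; the cause of that gap was not tested. With array weights 10552 probe sets were called at 2 mm in place of 6737. With 1 probe set per gene and all arrays, the counts of sugar genes under the alternatives ran from 15 to 20 at 2 mm. They ran from 16 to 22 at 5-7 mm and from 18 to 22 for the interaction. One of these alternatives, that of probe sets above the median level, held only 43 of the 61 genes. Without single arrays the counts were 12 to 17, 14 to 21 and 16 to 19. Of all 88 probe sets of these genes, 21, 23 and 28 were called. Of 54 calls of 27 named sugar genes, 41 were kept under all of the 17 to 19 alternatives run for the call. The other 13 were lost under at least 1. The choice of probe set was not varied in these alternatives. Same-numbered replicates did not deviate together (r of -0.0684 to 0.0844), and with the replicate block 5643 and 10894 probe sets were called at 2 mm and 5-7 mm, 15 and 16 sugar genes, and OsSWEET15 at 2 mm had an adjusted p of 0.00398. Signal near the reporter controls limits what can be said of AMY1.3 in osmads1 and of OsSWEET15 and OsCIN3 in wild type at 5-7 mm, and of the other amylase genes.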

Other observations

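The pair of probe sets with the widest spread between replicates on the whole array were those of OsTPP7 (residual SD within groups 0.892) and AMY1.3 (0.868), ranks 1 and 2 of 57194. Within groups they ran opposite ways. In wild type at 2 mm AMY1.3 read 7.42, 5.97 and 6.77 where OsTPP7 read 3.91, 6.88 and 6.12, and in wild type at 5-7 mm the values were 8.09, 5.41 and 7.01 against 7.3, 8.66 and 7.98. In osmads1 they were 6.69, 8.25 and 7.64 against 5.14, 4.59 and 4.98 at 2 mm, and 3.02, 3.45 and 3.23 against 6.0, 5.04 and 5.23 at 5-7 mm. In each of the 4 groups the array highest in AMY1.3 was the lowest in OsTPP7, and the r over the 12 arrays with group means subtracted was -0.735. The AMY1.3 values of osmads1 at 5-7 mm lie in the range of the reporter controls. Of the 61 sugar genes, OsTPP7 alone had the reverse order of AMY1.3 in all 4 groups and OsSWEET4 alone had the same order in all 4 (r = 0.724). These genes were picked out after the values of all 61 had been seen, so the orders are a description. OsTPP1 also varied against AMY1.3 (r = -0.729), and a probe set with no gene in the annotation used and the third widest spread varied with it (r = 0.938).

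On chromosome 8 the protein-coding genes on either side of AMY1.3 in the RefSeq table are AMY1.4 and LOC4345815. The latter was lower in osmads1 at both lengths, by -0.58 at 2 mm (limma adjusted p = 0.0398) and -1.25 at 5-7 mm (adjusted p = 0.000125). It was looked at for its position alone. On chromosome 2, LOC4329463 on one side of OsSWEET15 differed by 0.12 at 2 mm (limma adjusted p = 0.491). At 5-7 mm LOC4329463 was lower in osmads1 (-0.37, adjusted p = 0.00721), whereas OsSWEET15 was higher. LOC4329465 on the other side was not measured. For scale, 12.1% of all genes were lower at 2 mm and 19.4% at 5-7 mm.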
